A study of Mus musculus with 8 samples.

Results

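The 9 genes described here encode transcription factors that drive and maintain the fat cell programme: Pparg, Cebpa, Cebpb, Cebpd, Rxra, Klf15, Klf9, Ebf1 and Ppard. They were taken from a fixed list of symbols out of 22180 genes named on the array, and each had 1 probe set annotated to it alone, so no choice between probe sets was needed. They were measured in brown adipose tissue (BAT), the heat-producing fat depot, of 8 male C57BL/6J mice, 1 mouse per 1-colour Affymetrix Mouse Gene 2.0 ST array. Of the mice, 5 were labelled as lacking the gene Abhd15, an alpha/beta hydrolase fold protein of fat cells (Abhd15 KO) and 3 as wild type (WT). All were 14 weeks old by the design text, ate normal chow, fasted overnight and had 1 h of chow again before the tissue was taken. The sources used here do not give which part of Abhd15 was deleted, the number of founder lines, litters or harvest days.

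Fat cell formation runs as a cascade. C/EBP beta and C/EBP delta, leucine zipper proteins induced early by cyclic AMP and glucocorticoid signals, switch on the genes of PPAR gamma and C/EBP alpha, which then keep each other on and bind side by side at most adipocyte genes. PPAR gamma is a nuclear receptor that binds DNA only as a pair with a retinoid X receptor such as RXR alpha. EBF1 and the zinc finger proteins KLF9 and KLF15 act in the same cascade, and PPAR delta, a close relative of PPAR gamma, is best known for driving fatty acid oxidation. In mature brown fat the same factors maintain lipid storage genes and, with partners such as PRDM16 and EBF2, the thermogenic programme.

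The promoters of the members whose values varied most between the mice, or varied together, are shown as the 250 bases before an annotated transcription start (RefSeq, build GRCm38.p6, plus strand). The table held 12 such windows for 8 of the 9 members, all except Cebpd. Capitals mark the matches named after each coordinate.
Cebpb, chr2:167688665-167688914, with TGACG or its reverse complement in capitals: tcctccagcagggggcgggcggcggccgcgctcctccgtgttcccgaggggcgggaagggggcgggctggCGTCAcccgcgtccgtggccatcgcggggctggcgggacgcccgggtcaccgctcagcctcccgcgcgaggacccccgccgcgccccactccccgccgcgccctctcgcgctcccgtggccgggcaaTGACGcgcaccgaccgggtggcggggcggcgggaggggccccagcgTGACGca
Klf15, chr6:90462326-90462575, with TGACG or its reverse complement and CACGTG in capitals: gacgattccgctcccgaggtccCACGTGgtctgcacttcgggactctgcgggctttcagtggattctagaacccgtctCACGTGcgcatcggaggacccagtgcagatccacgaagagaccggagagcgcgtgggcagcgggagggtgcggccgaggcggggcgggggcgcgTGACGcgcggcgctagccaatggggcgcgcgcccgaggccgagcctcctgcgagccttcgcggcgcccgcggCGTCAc
Klf9, chr19:23140976-23141225, with CCAAT on either strand and the match of TGACG in capitals: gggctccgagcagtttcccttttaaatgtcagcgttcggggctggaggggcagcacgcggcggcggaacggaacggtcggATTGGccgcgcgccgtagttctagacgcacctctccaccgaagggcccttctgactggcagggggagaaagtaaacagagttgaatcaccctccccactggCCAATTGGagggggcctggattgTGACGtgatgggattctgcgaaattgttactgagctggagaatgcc
Cebpa, chr7:35119043-35119292, with TATAAA in capitals: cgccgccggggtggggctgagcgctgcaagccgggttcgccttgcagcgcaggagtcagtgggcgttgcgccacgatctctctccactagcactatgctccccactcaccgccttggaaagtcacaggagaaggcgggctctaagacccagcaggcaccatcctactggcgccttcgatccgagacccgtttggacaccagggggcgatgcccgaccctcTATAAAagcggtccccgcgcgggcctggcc
Pparg, the third of its starts, chr6:115421816-115422065, with TTGCNNAA or its reverse complement in capitals: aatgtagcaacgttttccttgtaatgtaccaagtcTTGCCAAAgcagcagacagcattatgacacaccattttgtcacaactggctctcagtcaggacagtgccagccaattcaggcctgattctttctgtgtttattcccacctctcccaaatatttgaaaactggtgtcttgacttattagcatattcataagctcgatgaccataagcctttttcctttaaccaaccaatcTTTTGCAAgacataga

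Both strands of every window were searched for 6 motifs. TGACG, the core of the cyclic AMP response element, matched 3 times in the Cebpb window, 2 times in that of Klf15 and 1 time in that of Klf9, and in no other window of a member. It was found in 17.8% of all 32851 windows of the table. The E-box CACGTG matched 2 times before Klf15 and in no other member's window, against 6.02% of all windows. TTGCNNAA, the C/EBP core with 2 free bases, matched 2 times before the third start of Pparg, against 9.56% of all windows. TATAAA matched before Cebpa and, on the other strand, before the second start of Pparg (12.4% of all windows). CCAAT (33.8% of all windows) matched 3 times before Klf9, where 2 matches on opposite strands overlap, 2 times before the third start of Pparg, and 1 time each before Klf15, Ppard and the second start of Pparg. The GC box GGGCGG (32.7% of all windows) matched 5 times before Cebpb, 3 times before Ppard and the first start of Rxra, 2 times before the second start of Pparg and 1 time before its first start and before Klf15. These are matches of letters and do not show binding.

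The arrays carry the following limits. Abhd15 itself was no lower in the 5 arrays labelled Abhd15 KO, called KO-labelled arrays from here (6.12 ± 0.27 log2, SD, n = 5), than in the WT arrays (6.01 ± 0.19, SD, n = 3), so the groups rest on their labels. No source used here places the Abhd15 probes inside or outside the deletion, and probes outside it would check nothing. All 8 adipocyte markers and all 9 brown adipocyte markers that were measured passed the filter on dim genes, and Ucp1, which uncouples respiration to make heat, read 12.73 ± 0.15 and 12.66 ± 0.13 in the same order. Angptl8, a secreted lipase regulator induced by feeding, read 7.90 in Abhd15 KO replicate 1 and 7.95 in WT replicate 2, against 10.42 to 10.81 in the other 6 arrays. Skeletal muscle markers varied widely inside both groups: their mean deviation ran from −1.85 to 0.93 log2 in the KO-labelled arrays and from −1.26 to 1.70 in the WT arrays. All 18 of the 18 muscle markers and 12 of 14 macrophage markers had a lower mean in the KO-labelled arrays (median differences −0.53 and −0.19 log2). A higher mean was found for 10 of 10 endothelial markers and 7 of 9 brown adipocyte markers (medians 0.11 and 0.07 log2). Of all genes tested 51.7% were higher. In a piece of tissue, fewer cells of a type and less RNA per cell cannot be told apart.

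None of the 9 factors passed the comparison of the genotypes. Values are log2 probe set signals, and differences are Abhd15 KO minus WT. In the limma fit over 13223 genes above a dim limit of 2.88 log2 in at least 3 arrays, 0 of 9 members had an adjusted p under 0.05, as did 0% of all genes tested (adjusted p = 0.9997 for each member). At an unadjusted p under 0.05 there were 0 members, against 3.99% of all genes, and in 0 members did the groups fail to overlap, against 2.77% of all genes. Of the members 4 were higher and 5 lower in the KO-labelled arrays, where 51.7% of all genes were higher. The median size of the difference was 0.08 log2 over the members and 0.11 over all genes tested. For 6 members the 95% confidence interval of the fold lay within 1.5-fold in either direction. The exceptions were Cebpb, Cebpd and Klf15. Over all genes tested the median half-width of the interval was 0.36 log2. The share of all genes within 1.5-fold was not computed, so the count does not set the members apart from other genes.

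**Figure D1:**
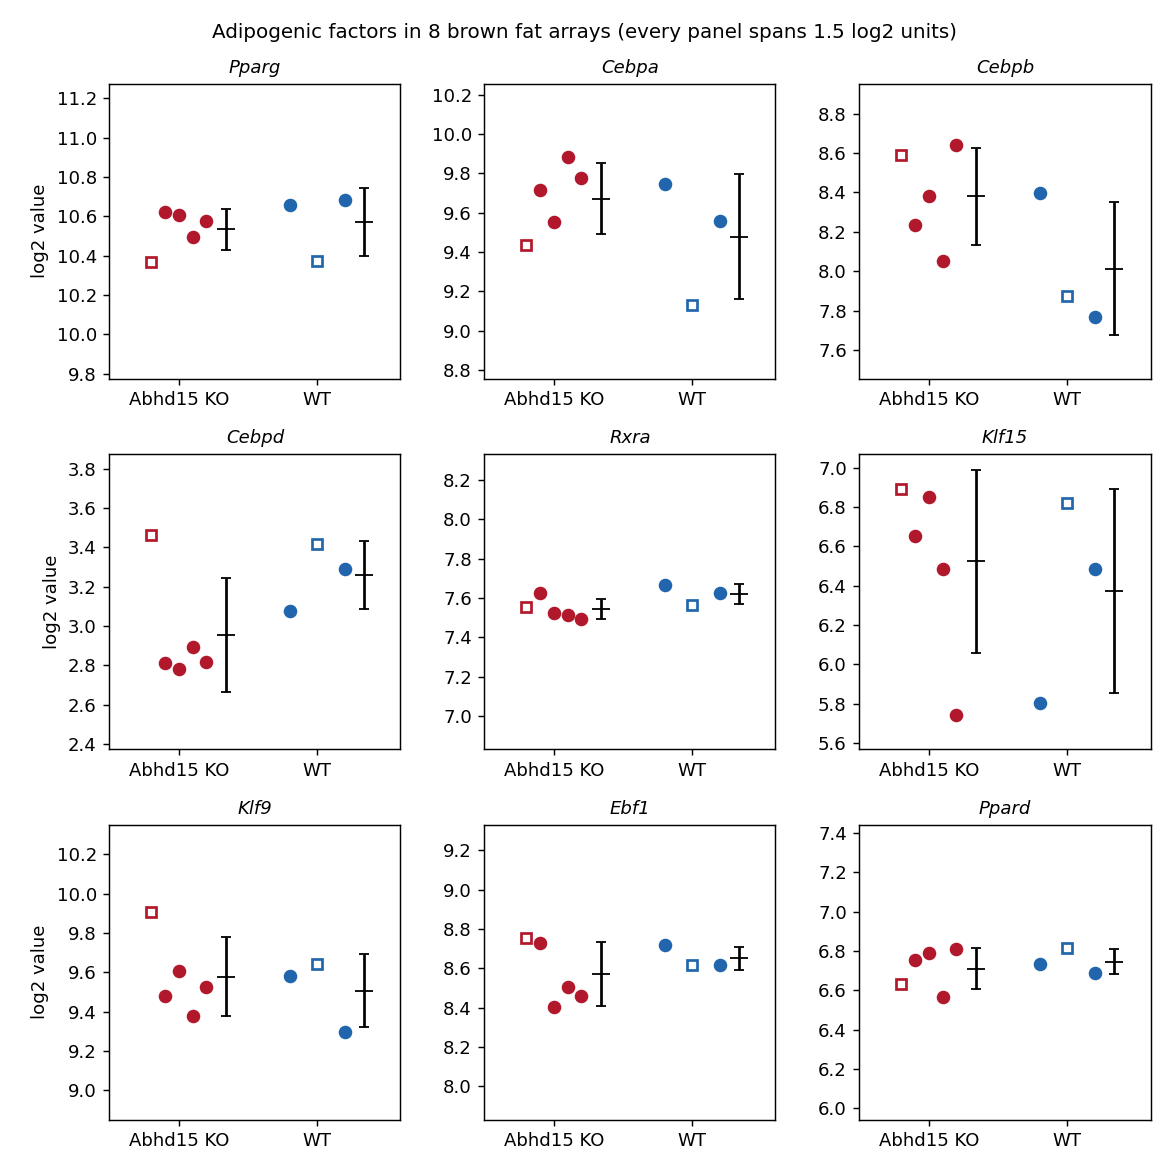
Log2 value of each of the 9 factors in the 5 KO-labelled arrays (red) and the 3 WT arrays (blue), with group mean and SD in black. Open squares are Abhd15 KO replicate 1 and WT replicate 2, the arrays lowest in Angptl8. The groups overlap in every panel, Rxra spreads least and Klf15 most.

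Pparg, the receptor that defines the fat cell, was nearly level across the mice. It read 10.37, 10.62, 10.61, 10.50 and 10.58 in Abhd15 KO replicates 1 to 5 and 10.66, 10.37 and 10.68 in WT replicates 1 to 3. The lowest value of either group was that of the array low in Angptl8, and the other 6 arrays lay between 10.50 and 10.68. The means were 10.53 ± 0.10 in the KO-labelled arrays (SD, n = 5) and 10.57 ± 0.17 in the WT arrays (SD, n = 3). The difference was −0.04 with a 95% confidence interval of −0.30 to 0.23, which is 0.810 to 1.17-fold (exact two-sided permutation p = 0.696). It had no stable direction: it was 0.00 without Abhd15 KO replicate 1, 0.01 without WT replicate 1 and 0.02 without WT replicate 3. The permutation test over the 56 splits of the arrays allows no p below 0.0179.

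Rxra, the partner of PPAR gamma on DNA, had one of the tightest spreads on the array. Its values were 7.56, 7.63, 7.53, 7.51 and 7.50 in Abhd15 KO replicates 1 to 5 and 7.67, 7.57 and 7.63 in WT replicates 1 to 3. The residual SD of 0.05 was smaller than that of all but 0.597% of the genes tested, whose median was 0.23. The WT arrays sat at the upper end, yet Abhd15 KO replicate 2 lay above WT replicate 2. The difference was −0.08 (95% confidence interval −0.29 to 0.14, exact permutation p = 0.0714). It kept its direction in all 18 alternatives, between −0.11 and −0.05. The interval comes from the moderated fit, which widens the SD of such a gene.

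Ppard, the receptor linked to fatty acid oxidation, also varied little. It read 6.64, 6.75, 6.79, 6.57 and 6.81 in Abhd15 KO replicates 1 to 5 and 6.74, 6.82 and 6.69 in WT replicates 1 to 3. The difference was −0.04 (−0.27 to 0.20, exact permutation p = 0.571), and the WT values fell inside or just above the span of the others. Of the rest of the PPAR and RXR family, Ppara, the receptor that drives fatty acid oxidation in fasting, differed by 0.18 (−0.16 to 0.52). The retinoid X receptor genes Rxrg and Rxrb differed by 0.19 (−0.09 to 0.48) and 0.02 (−0.35 to 0.39). None of these 3 had an unadjusted p under 0.05.

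Cebpb, an early factor of the cascade that also responds to cyclic AMP, showed the largest difference of the members. It read 8.59, 8.23, 8.38, 8.05 and 8.64 in Abhd15 KO replicates 1 to 5 and 8.40, 7.87 and 7.77 in WT replicates 1 to 3. All 5 KO-labelled arrays lay above WT replicates 2 and 3, while WT replicate 1 lay above 3 of them. The means were 8.38 ± 0.25 (SD, n = 5) and 8.01 ± 0.34 (SD, n = 3), in the same order. The difference was 0.37 (−0.05 to 0.79), or 0.963 to 1.73-fold, with an exact permutation p of 0.143. It stayed positive in all 18 alternatives, between 0.25 and 0.56. It was 0.56 without WT replicate 1 and 0.25 without WT replicate 3, and it was 0.43 with the muscle markers as a covariate. In 3 of the 18 alternatives the unadjusted limma p was under 0.05, the lowest 0.0141 without WT replicate 1. The adjusted limma p was under 0.05 in none of them (lowest 0.940).

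Cebpd, the other early factor, read close to the dim limit and went the other way. Its values were 3.47, 2.81, 2.78, 2.90 and 2.82 in Abhd15 KO replicates 1 to 5 and 3.08, 3.42 and 3.29 in WT replicates 1 to 3. Only 5 of the 8 values lay above the limit of 2.88, those of every WT array and of Abhd15 KO replicates 1 and 4. The KO-labelled arrays alone would not have met the filter of at least 3 arrays. Of the 5 KO-labelled arrays 4 were lower than every WT array, with replicate 1 the highest of all. The difference was −0.31 (−0.70 to 0.09, exact permutation p = 0.143), and it was −0.43 without Abhd15 KO replicate 1. Without that array and WT replicate 2 it was −0.36. In both fits the unadjusted limma p was under 0.05 (0.00645 and 0.0249) and the adjusted limma p was not (0.960 and 0.9996). Both fits leave out the high KO-labelled array. The KO-labelled values that remain, 2.78 to 2.90, lay at the dim limit, so these p-values are no support for a difference.

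Cebpa, which holds the mature state together with Pparg, read 9.43, 9.72, 9.55, 9.88 and 9.78 in Abhd15 KO replicates 1 to 5 and 9.75, 9.13 and 9.56 in WT replicates 1 to 3. Here too the arrays low in Angptl8 were the lowest 2. The difference was 0.19 (−0.18 to 0.56, exact permutation p = 0.321). It was 0.02 without WT replicate 2, the lowest array, and 0.33 without WT replicate 1. Of the other C/EBP genes, Cebpg, a partner that lacks an activating region, differed by 0.04 (−0.33 to 0.42). Ddit3, the stress-induced member that blocks the others, differed by −0.20 (−0.67 to 0.27). Cebpe, a factor of granulocytes, did not pass the filter on dim genes.

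**Figure D2:**
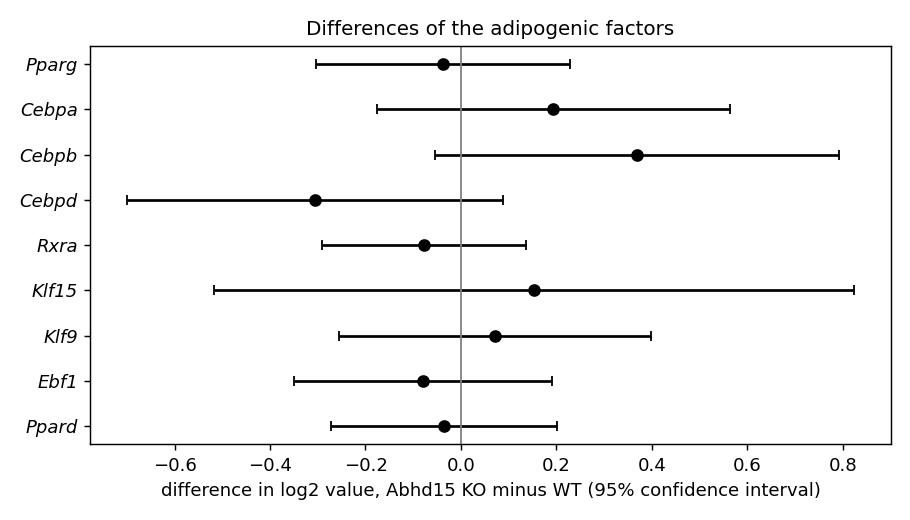
Difference in log2 value, Abhd15 KO minus WT, for each factor (points) with its 95% confidence interval from limma (bars). Every interval includes 0; the points run from −0.31 for Cebpd to 0.37 for Cebpb, and the interval of Klf15 is the widest.

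Klf15, a zinc finger factor induced by glucocorticoids that raises Slc2a4 in cultured mouse fat cells, varied most among the members. It read 6.89, 6.65, 6.85, 6.48 and 5.75 in Abhd15 KO replicates 1 to 5 and 5.81, 6.82 and 6.49 in WT replicates 1 to 3. The lowest arrays were 1 from either group, Abhd15 KO replicate 5 and WT replicate 1, and the other 6 lay between 6.48 and 6.89. Its residual SD of 0.48 was larger than that of 92.8% of the genes tested. The difference was 0.15 (−0.52 to 0.82, exact permutation p = 0.661). It was −0.13 without WT replicate 1, 0.38 without WT replicate 2, 0.35 without Abhd15 KO replicate 5 and 0.06 with the muscle markers as a covariate.

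Klf9, another glucocorticoid-induced zinc finger factor that promotes fat cell formation in mouse cell culture, read 9.91, 9.48, 9.61, 9.38 and 9.53 in Abhd15 KO replicates 1 to 5 and 9.58, 9.64 and 9.30 in WT replicates 1 to 3. The 2 highest values were those of the arrays low in Angptl8. The difference was 0.07 (−0.26 to 0.40, exact permutation p = 0.661), and it was −0.01 without Abhd15 KO replicate 1 and −0.03 without WT replicate 3. Among the 14 KLF genes tested 8 were higher and 6 lower in the KO-labelled arrays, with a median of 0.05, and 0 had an unadjusted p under 0.05. Klf11 differed by 0.22 (−0.24 to 0.69), Klf5, a promoter of adipogenesis, by −0.24 (−0.86 to 0.38) and Klf3, a repressor of it, by 0.11 (−0.22 to 0.43).

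Ebf1, an early B cell factor that also promotes adipogenesis, read 8.76, 8.73, 8.41, 8.51 and 8.46 in Abhd15 KO replicates 1 to 5 and 8.72, 8.62 and 8.62 in WT replicates 1 to 3. The WT values lay inside the span of the KO-labelled arrays, and the difference was −0.08 (−0.35 to 0.19, exact permutation p = 0.446). It was −0.13 without Abhd15 KO replicate 1, −0.038 without replicate 3, −0.052 without replicate 5 and −0.046 without WT replicate 1. Ebf2, the family member tied to brown fat identity, differed by −0.07 (−0.37 to 0.24). Ebf3 differed by 0.31 (−0.26 to 0.88).

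Several of the factors lay at an extreme in the same arrays, Abhd15 KO replicate 1 and WT replicate 2, which carry different genotype labels. In both arrays Pparg (10.37 and 10.37) and Cebpa (9.43 and 9.13) were below the other 6. In both arrays Cebpd (3.47 and 3.42, against 2.78 to 3.29) and Klf9 (9.91 and 9.64, against 9.30 to 9.61) were above the other 6. That made 2 of 9 members lowest and 2 of 9 highest there, where 7.65% of all genes tested were lowest and 9.6% highest in these arrays. Klf15 was high in both (6.89 and 6.82), but so it was in Abhd15 KO replicate 3 (6.85). Cebpb parted from this pattern, with the second highest value in the first array (8.59) and the second lowest in the other (7.87).

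Some relatives of these factors held wider shifts in the same arrays. Of 20 other tested genes of the PPAR, RXR, C/EBP, KLF and EBF families 4 were lowest and 4 highest in both arrays, and the rest were neither. Of all genes tested 7.65% were lowest and 9.6% highest there. Klf10, a repressor induced by growth factor signals, stood at 6.78 and 6.73 in them, with 8.50 to 9.09 elsewhere. Ebf3 read 6.95 and 6.76 against at least 7.49, and Cebpg and Klf11 were lowest there as well. Klf2, a factor of endothelial cells that restrains Pparg, stood at 6.41 and 5.74, with 4.27 to 5.21 elsewhere, and Klf4, Klf6 and Klf16 were also highest there. The list of 21 glucocorticoid target genes had its highest mean deviations in these arrays, 0.35 and 0.11 log2, against −0.23 to 0.07 in the others. That of the 12 PPAR delta targets was 0.23 and 0.19 in them against −0.13 to −0.02, whereas Ppard itself was second lowest of all arrays in the first and highest in the other. The targets of the factors lowest there were not set apart in both arrays. The mean deviation of the 32 PPAR gamma targets was 0.07 and −0.01 in them against −0.11 to 0.10. For the 14 C/EBP targets it was 0.17 and −0.02 against −0.18 to 0.09. The mean deviation of the 8 adipocyte markers was 0.07 and −0.02 in them and −0.05 to 0.05 in the others, and that of the preadipocyte and fibroblast markers was 0.21 and 0.30 against −0.21 to 0.11. Macrophage markers were at 0.31 and 0.48 against −0.57 to 0.14. The part of such cells in these values was not tested. The arrays were singled out by Angptl8 with earlier results of these data known, so the values are a description.

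**Figure D3:**
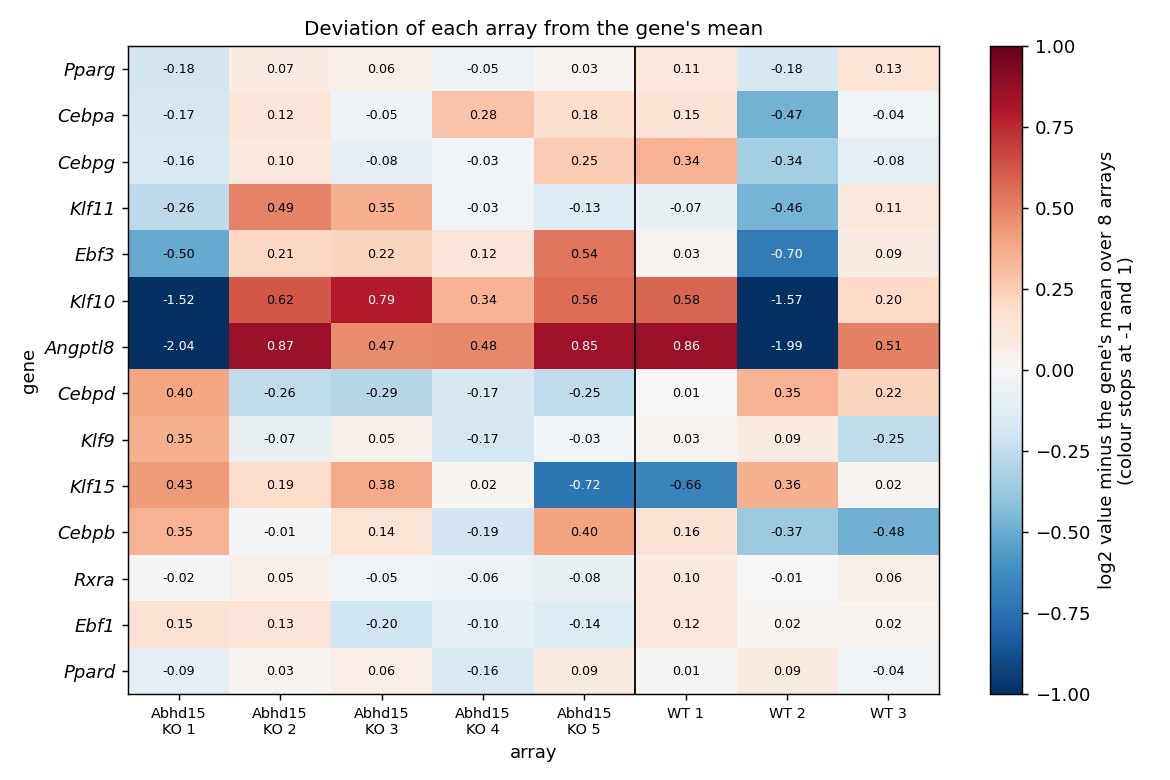
Log2 value minus the gene's mean over 8 arrays (cell numbers and colour) for the 9 factors, Angptl8 and 4 relatives chosen after their values were seen, by array, with the KO-labelled arrays left of the line and WT right. Pparg, Cebpa, Cebpg, Klf11, Ebf3, Klf10 and Angptl8 are lowest in Abhd15 KO 1 and WT 2, and Cebpd and Klf9 are highest there. The relatives highest there, Klf2, Klf4, Klf6 and Klf16, are not shown.

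The genes most like the 3 members of widest range were taken by Pearson's r over the 8 arrays, as a description without a test. For Klf15 these were Gm1976 (0.957), Higd2a (0.949), an assembly factor of the respiratory chain, and Gng7 (0.948), a G protein subunit. For Cebpb they were Prkx (0.960), a protein kinase close to protein kinase A, 1700003F12Rik (0.959) and Ehd3 (0.958), a protein of endocytic transport. For Cebpa they were Cdo1 (0.991), the cysteine dioxygenase, Slc20a1 (0.982), a phosphate transporter, and Crybg3 (0.977). Over the 6 arrays left without those low in Angptl8 the values ran from 0.890 for Crybg3 to 0.976 for Gm1976. They were picked as the highest among 13223 genes, and the leading values of each member differed little.

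Genes that these factors control lay on both sides of 0. Of 32 tested PPAR gamma targets 14 were higher and 18 lower in the KO-labelled arrays, with a median of −0.02, against a median of 0.01 over all genes tested. With limma 0 passed the adjusted threshold, and 2 of the 32 had an unadjusted p under 0.05, against 3.99% of all genes. Slc2a4, the insulin-responsive glucose transporter, read 9.35 ± 0.12 in the KO-labelled arrays (SD, n = 5) and 9.01 ± 0.05 in the WT arrays (SD, n = 3), a difference of 0.34 (0.10 to 0.58). Retn, an adipocyte hormone, read 9.96 ± 0.15 and 10.26 ± 0.07 in the same order, a difference of −0.30 (−0.57 to −0.04). These were the 2 of 32 with groups that did not overlap, against 2.77% of all genes. Hilpda and G0s2, inhibitors of the main triglyceride lipase, differed by −0.35 (−0.82 to 0.12) and 0.28 (−0.17 to 0.74). The core storage genes were nearly level: Fabp4, Cd36 and Cidec differed by −0.02, −0.03 and −0.06. These 3 are named after their values were seen.

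Among 14 C/EBP targets, which also hold Slc2a4 and Retn, 7 were higher and 7 lower (median 0.00). Ppargc1a, the coactivator of mitochondrial genes, differed there by 0.29 (−0.29 to 0.87). Among 12 PPAR delta targets 4 were higher and 8 lower (median −0.02), with the cholesterol exporter Abca1 at −0.23 (−0.48 to 0.01) and Ucp3, a mitochondrial carrier, at 0.26 (−0.09 to 0.61). In 2 of these 12, Abca1 and Acaa2, an enzyme of fatty acid oxidation, the groups did not overlap, against 2.77% of all genes. Acaa2, named after its values were seen, differed by −0.05 (−0.26 to 0.15). Among 14 genes linked to KLF15 and KLF9, 8 were higher and 6 lower (median 0.02), with the alanine transaminase Gpt2 at −0.33 (−0.79 to 0.12) and the clock gene Per1 at 0.30 (−0.23 to 0.83). The largest difference there was that of Dio2, a deiodinase that activates thyroid hormone, at 0.59 (−1.07 to 2.24), with values of 4.47 to 8.32 in the KO-labelled arrays and 5.57 to 6.80 in the WT arrays; it is named after its values were seen.

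Of 28 factors that promote adipogenesis 15 were higher and 13 lower (median 0.01). Stat5b, a signal transducer of growth hormone and prolactin, read 7.05 ± 0.05 in the KO-labelled arrays and 6.84 ± 0.08 in the WT arrays, a difference of 0.21 (−0.01 to 0.43). It was the 1 gene of the 28 without overlap, against 2.77% of all genes. Prdm16, the brown fat coregulator, differed by −0.35 (−0.88 to 0.18) and Nfic by −0.26 (−0.57 to 0.06). Of 25 factors that restrain adipogenesis 16 were higher and 9 lower (median 0.06), with Tcf7l2, an effector of Wnt signals, at 0.25 (−0.08 to 0.58) and Wwtr1, an effector of the Hippo pathway, at −0.13 (−0.37 to 0.12). Of 28 coregulators of PPAR gamma 13 were higher and 15 lower (median −0.02), with the arginine methyltransferase Carm1 at −0.18 (−0.42 to 0.06) and Tbl1xr1, a subunit of corepressor complexes, at 0.23 (−0.09 to 0.55). Of 21 glucocorticoid targets 13 were higher and 8 lower (median 0.06), led by the cell cycle inhibitor Cdkn1a at 0.35 (0.04 to 0.66). The share of all genes tested that were higher was 51.7%, and no difference of a list from it was tested. In each of the 7 lists after the PPAR gamma targets 0 genes passed the adjusted threshold with limma. An unadjusted p under 0.05 was found for 2 of 14 C/EBP targets (Slc2a4 and Retn again), 1 of 14 genes linked to KLF15 and KLF9 (Slc2a4), 1 of 25 restraining factors (Foxa2) and 1 of 21 glucocorticoid targets (Cdkn1a), and for 0 in the other lists, against 3.99% of all genes.

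**Figure D4:**
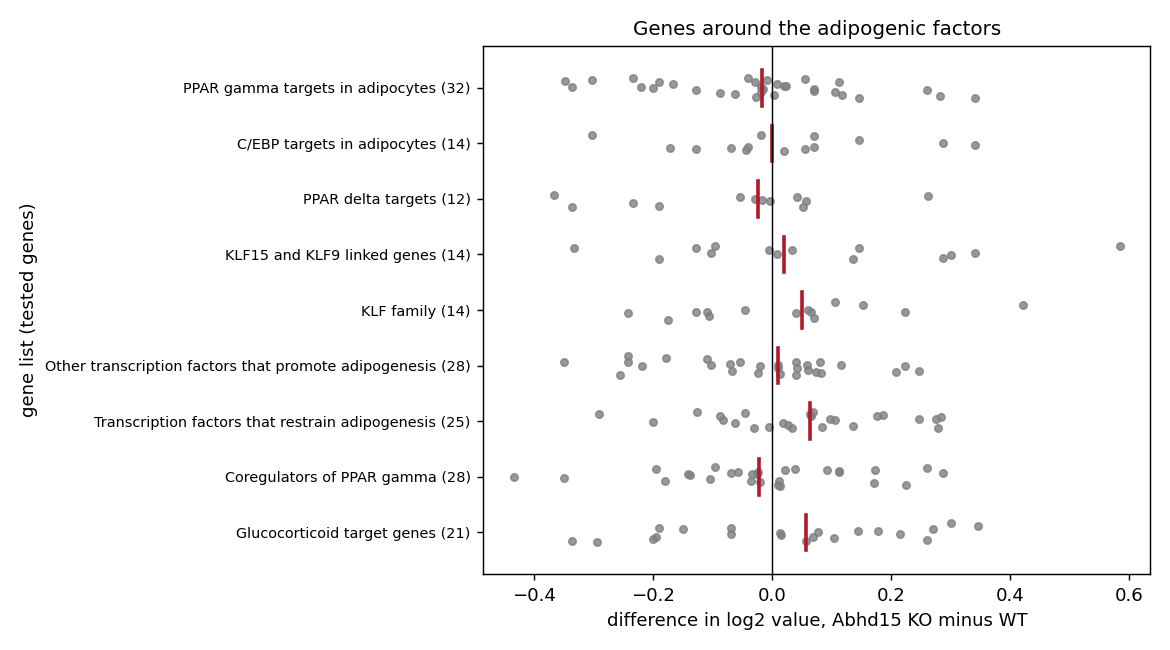
Difference in log2 value, Abhd15 KO minus WT, of each tested gene (grey points) in 9 lists of targets, relatives and regulators, with the list median as a red line. The number of tested genes is in brackets, vertical scatter is only for legibility, and the medians lie between −0.02 and 0.06.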

How the data were processed

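RNA (200 ng) from each mouse was labelled and hybridised to 1 array. The deposited values are log2 signals per probe set, made by the authors with RMA and the oligo package per the submitters' processing notes; versions are not given in the sources used here, and the labels' design text mentions Expression Console too. RMA's quantile normalization hides a change shared by most genes. The table held 41345 probe sets with array medians of 3.00 to 3.04. Arrays give no read depth, and their number limits the precision.

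Probe sets with 1 symbol (23521) were named from the platform annotation, checked by Entrez identifier against RefSeq (GRCm38.p6; 23328 matched, 0 symbols updated), and the one with the highest mean stood for a gene. The dim limit of 2.88 log2 is the 95th percentile of 1400 probe sets of olfactory and vomeronasal receptors. Differences came from limma 3.58.1 (R 4.3.3; lmFit and eBayes with a group term), with Benjamini-Hochberg adjustment over 13223 genes, and single values by exact two-sided permutation. Nothing says that mice of 1 label came from separate litters or days. The p-values therefore set each difference against the spread between these samples only, and may not hold for other mice of the genotypes. The limma fit was also run on simulated data, and the outcome is not given here.

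The members and lists were chosen with earlier results of these data known. The text names all members, tested genes of their families, up to 4 genes of lowest p per list, the 3 genes of highest Pearson's r for each of the 3 members of widest range, Abhd15 and Angptl8. Ucp1 and other exceptions are checks or are marked. Lists are described by counts and medians. Alternatives were a replicate block, other dim filters, quantile normalization, median centring, trend and robust fitting, array weights, mean probe sets, a muscle covariate, and arrays left out.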

Additional observations from a re-analysis of the deposited data

Results flagged for a closer look

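Among 29 genes of the 5 families and 9 list means, checked for an array far from the rest of the 5 KO-labelled arrays by Dixon's gap ratio at the 95% level, 2 values stood apart. Chance alone puts about 1 in 20 such groups past that limit, and 2 of 38 passed it here. The 38 checks share the same 5 arrays and are not independent, and the count was not tested. Cebpd read 3.47 in Abhd15 KO replicate 1 against 2.78 to 2.90 in the other 4, a gap of 0.836 of the whole range. Klf10 read 6.78 in the same array against 8.64 to 9.09, a gap of 0.806 of the range. WT replicate 2, the other array low in Angptl8, held the highest WT value of Cebpd (3.42) and the lowest of Klf10 (6.73).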

How the results depend on the processing

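Over 18 alternatives, 161 values of the 9 members were computed, and 7 turned from the direction given above while 154 did not. The 154 include the Ppard difference without Abhd15 KO replicate 4, which was 0 and has no direction. None of the 161 passed an adjusted limma p of 0.05 (lowest 0.940), and 5 had an unadjusted p under 0.05, all of them for Cebpb or Cebpd. Cebpd gave no value with genes required above the dim limit in all 8 arrays. With single arrays left out, the difference ran from −0.14 to 0.018 for Pparg, from −0.13 to 0.38 for Klf15 and from −0.033 to 0.14 for Klf9, so these 3 have no settled direction. That of Ppard ran from −0.0651 without WT replicate 3 to 0.0185 without WT replicate 2 and Abhd15 KO replicate 1 together. Over the single arrays left out, the median of the factors that restrain adipogenesis ran from −0.0354 (without WT replicate 2) to 0.12 and that of the PPAR gamma coregulators from −0.0619 (without WT replicate 2) to 0.0205 (without WT replicate 3); the cause was not tested. The other 7 list medians moved by less than the spread between arrays. No gene passed the adjusted threshold under any alternative. The count at an unadjusted p under 0.05 was 528, 461 to 671 with single arrays left out, and 1019 with no filter on dim genes, where more genes were tested. Same-numbered arrays of the groups did not deviate together (r over genes −0.26, −0.10 and 0.02 for numbers 1 to 3). With the replicate number as a block the count was 422. The differences of Klf15, Klf9 and Cebpa were then 0.43, 0.16 and 0.09, and that of Ebf1 was −0.021. Abhd15 KO replicates 4 and 5 have no WT array of the same number, so the blocked differences rest on replicates 1 to 3 alone. A shift from the main fit thus also reflects the loss of those arrays. Signals near the dim limit, as for Cebpd, limit what can be measured.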
